A study of Mus musculus with 18 samples.

Results

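The genes described are a set of nucleic acid sensors, their adaptor and antiviral effectors, named by symbol with earlier results of these data known: Zbp1, Ifih1, Dhx58, Ddx60, Tlr3, Mavs, Eif2ak2, Mx2, Bst2 and Isg15. A probe set was taken for a gene where the platform annotation gave it that 1 symbol, and the brightest was kept per gene. Of the 10 genes, 9 had such a probe set, out of 19938 genes on the array with one, and each of the 9 had exactly 1. The probe set for Isg15, a ubiquitin-like modifier, also carries the symbol of a predicted gene, so its level is not analysed here.

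Expression was measured in mammary tumours of mice that carry the neu (ERBB2) transgene, FVB/N-Tg(MMTVneu)202Mul/J, whose MMTV promoter drives it mainly in mammary epithelium. The mice had intact Snai2 (WT) or lacked it (KO; the allele came from B6;129S1-Snai2tm2Grid/J mice), and had been pregnant (parous) or not (nulliparous). All tumours are labelled ERBB2+, and no drug was given. The 6 groups were nulliparous WT with metastasis (n = 4), parous WT with metastasis (n = 4), nulliparous KO with metastasis (n = 1), nulliparous KO without metastasis (n = 3), parous KO with metastasis (2 samples from 3 arrays) and parous KO without metastasis (n = 3). No WT group lacked metastasis, so genotype and metastasis status cannot be told apart among nulliparous mice beyond the lone KO tumour. Ages and the strain background of each group are not given in the sources used here.

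Cells hold receptors for nucleic acids that look viral or misplaced. Ifih1 (MDA5) is a cytosolic helicase that detects long double-stranded RNA and signals through Mavs, an adaptor on mitochondria, while Tlr3 detects such RNA in endosomes and uses another adaptor, Ticam1. Both routes lead to interferon production, and interferon in turn raises transcription of many of the sensors and of effectors that block viruses, often through the interferon-stimulated response element (ISRE) in their promoters. In tumours the same genes can be expressed by cancer cells, by stroma and by immune cells, and a piece of tumour mixes all of these: fewer cells of a type and less RNA per cell cannot be told apart.

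The promoter bases are shown because they hold, or lack, an exact match to a core of that element. The motif searched was GAAA, NN (any pair of bases) and GAAA in an unbroken row, on both strands, with overlapping matches counted, in the 250 bases before each gene's start. Sequences and starts come from RefSeq on GRCm38.p6, whose promoter table held 7 of the 10 genes. Of 32851 promoters of that length, 978 held the motif, which is 2.98%. Capitals mark the matches, and each sequence is on the strand of its gene and ends before the start of transcription. Ddx60 lies on the plus strand (chr8:61928004-61928086) and had 2 separate matches.
Ddx60: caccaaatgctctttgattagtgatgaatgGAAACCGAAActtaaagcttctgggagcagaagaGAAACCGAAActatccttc
Bst2 lies on the minus strand (chr8:71537557-71537632) and had 2 matches that share bases.
Bst2: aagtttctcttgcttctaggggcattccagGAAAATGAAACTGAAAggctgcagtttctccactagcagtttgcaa
The last 100 bases before the start of Tlr3 (chr8:45410381-45410480, minus strand) and of Mavs (chr2:131233963-131234062, plus strand) had no match, and neither did the rest of their windows.
Tlr3: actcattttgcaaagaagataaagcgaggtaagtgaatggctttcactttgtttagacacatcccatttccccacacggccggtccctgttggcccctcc
Mavs: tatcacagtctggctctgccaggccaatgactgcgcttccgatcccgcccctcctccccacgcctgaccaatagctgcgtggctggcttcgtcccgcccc

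The Ddx60 matches run from base -53 to -44 and from -19 to -10, counted back from the start, and the Bst2 matches from -130 to -121 and from -124 to -115. The Ifih1 and Eif2ak2 windows had no match to it either. A second motif, TTCNNNGAA, a core bound by STAT factors, was found in 7.02% of promoters. Eif2ak2 held it from -178 to -170, and Bst2 held it from -136 to -128, where it shares bases with the first ISRE match. Isg15 had 3 overlapping ISRE matches between -78 and -57. A match is a description of letters and not a tested site, and a window with no exact match may still hold the element. Whether matches go with expression was not tested, and Zbp1, Dhx58 and Mx2 were not in the promoter table.

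Values are log2 expression from RMA, in which a difference of 1 is a 2-fold change. RMA compresses dim genes, so differences of a dim gene such as Mx2 may be understated, and its quantile step removes shifts shared by all genes. Array medians lay between 7.60 and 7.67. Among parous KO mice with metastasis, arrays 2 and 3 hardly differed: over 10252 genes their difference had an SD of 0.102, and the next closest of all 153 pairs of arrays had 0.285, so their mean is used as 1 sample, replicate 2. Snai2 ran from 6.28 to 6.79 in KO tumours (median 6.59, n = 9) and from 6.68 to 7.09 in WT tumours (median 6.81, n = 8), so the genotypes overlapped. Luminal epithelial markers (10 of 10 measured) averaged 11.67 ± 0.10 on the log2 scale in WT tumours of nulliparous mice and 11.58 ± 0.06 in those of parous mice (SD, n = 4 each), and basal markers 7.83 ± 0.24 and 7.71 ± 0.22. The labels call the tumours luminal. The number of arrays limits the precision.

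The main pattern was a split in which nulliparous WT tumours stood above nearly every other tumour in 7 of the 9 genes: Zbp1, Ifih1, Dhx58, Ddx60, Eif2ak2, Mx2 and Bst2. Tlr3 and Mavs did not show it. Parous WT tumours were lower than nulliparous WT tumours by between 1.91-fold (Eif2ak2) and 4.70-fold (Ddx60) in these 7 genes. KO tumours had low levels whether parous or nulliparous, except the lone nulliparous KO tumour with metastasis. That tumour lay between the others and the nulliparous WT tumours in 5 of the 7 genes. For Ddx60, among these 5, it was level with the lowest nulliparous WT tumour, both at 10.06. For Zbp1 and Ifih1 it lay within the nulliparous WT range. The set was chosen with the WT parity difference known, so that difference is described and not tested for the members. The comparisons of KO with WT share WT arrays with it and are treated the same way. The 2 comparisons within KO mice use no WT array in their group means, although all comparisons share 1 estimate of the spread.

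**Figure D1:**
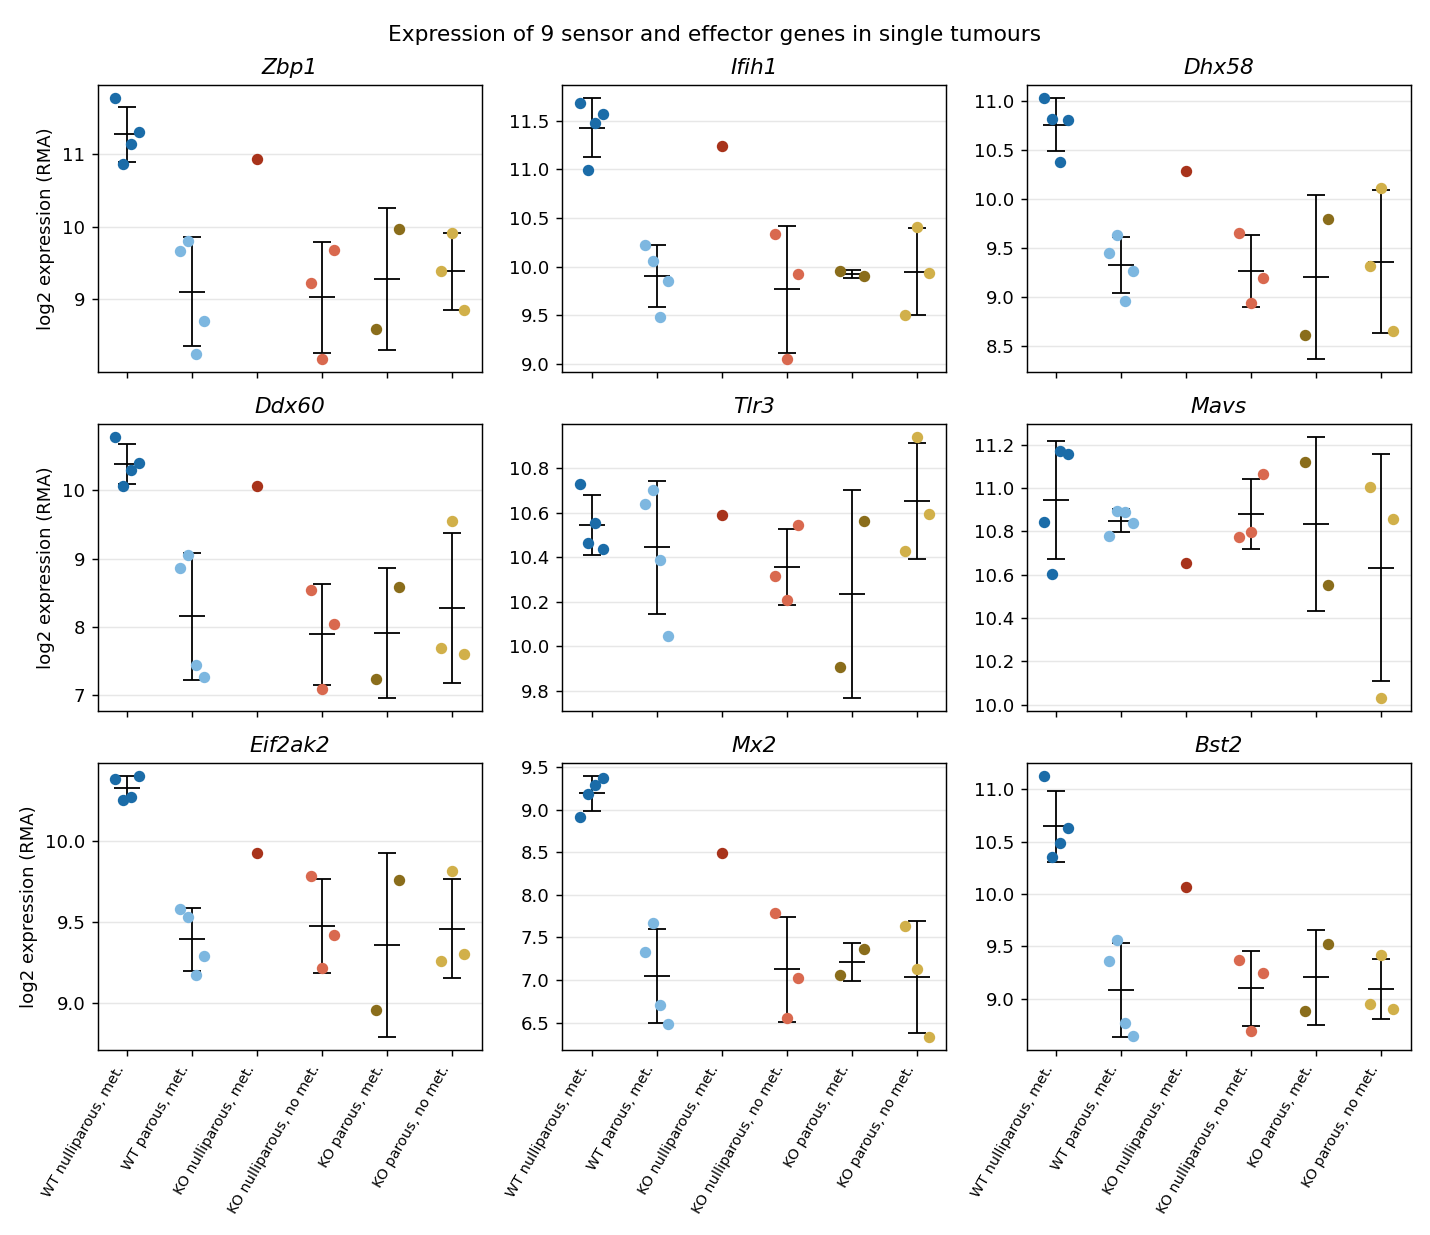
Log2 expression (vertical axis, RMA) of each of the 9 genes in each of 17 samples, 1 panel per gene, with the 6 groups on the horizontal axis. Points are samples, the wide lines are group means with SD bars (none for the lone tumour), and each panel has its own scale. Nulliparous WT tumours sit highest in 7 panels, and the groups overlap in the panels of Tlr3 and Mavs.

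Among the sensors, Zbp1 binds nucleic acids in the Z conformation and can start necroptotic cell death through Ripk3. Its log2 values in nulliparous WT tumours were 11.77, 10.86, 11.14 and 11.31, and in parous WT tumours 9.66, 9.81, 8.25 and 8.70. In KO tumours they were 10.93 in the nulliparous mouse with metastasis, 9.23, 8.18 and 9.68 in nulliparous mice without, 8.59 and 9.98 in parous mice with, and 9.39, 9.91 and 8.86 in parous mice without. The nulliparous WT and the lone KO tumour lay above 10.8 and every other tumour lay below 10. The WT means were 11.27 ± 0.38 (SD, n = 4) and 9.11 ± 0.75 (SD, n = 4), a parity difference of -2.17 (SE 0.43) on the log2 scale, or 4.49-fold.

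Ifih1, the MDA5 receptor, had log2 values of 11.68, 10.99, 11.48 and 11.57 in nulliparous WT tumours and 10.22, 10.06, 9.48 and 9.85 in parous WT tumours. In KO tumours the values were 11.24 (nulliparous, metastasis), 10.33, 9.06 and 9.93 (nulliparous, none), 9.96 and 9.90 (parous, metastasis) and 9.51, 10.40 and 9.94 (parous, none). The lone KO tumour fell inside the range of nulliparous WT tumours, and the 2 WT groups did not overlap. The parity difference in WT was -1.52 (SE 0.27), between means of 11.43 ± 0.30 and 9.91 ± 0.32 (SD, n = 4 each).

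Dhx58 (LGP2) is a relative of Ifih1 without signalling domains that tunes the response of the other receptors. Its log2 values were 11.03, 10.82, 10.38 and 10.81 in nulliparous WT tumours and 9.46, 9.63, 8.96 and 9.27 in parous WT tumours. KO tumours had 10.29 (nulliparous, metastasis), 9.66, 8.94 and 9.20 (nulliparous, none), 8.62 and 9.80 (parous, metastasis) and 9.32, 10.11 and 8.65 (parous, none). Of the 7 genes, this is the one in which the nulliparous WT group came closest to the rest, with its lowest tumour 0.27 above the highest of the 12 tumours outside it and the lone KO tumour. The WT parity difference was -1.43 (SE 0.31).

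Ddx60 is an interferon-inducible helicase. In nulliparous WT tumours its log2 values were 10.78, 10.06, 10.30 and 10.40, and in parous WT tumours they were 8.86, 9.05, 7.44 and 7.27. The KO values were 10.06 (nulliparous, metastasis), 8.54, 7.09 and 8.04 (nulliparous, none), 7.24 and 8.58 (parous, metastasis) and 7.69, 9.55 and 7.60 (parous, none). The parous WT tumours fell into 2 higher and 2 lower values, and a parous KO tumour without metastasis was the highest of those outside the nulliparous WT and lone KO tumours. Ddx60 had the largest WT parity difference of the 9 genes, -2.23 (SE 0.53), and also the largest span over the 17 samples, 3.69 on the log2 scale.

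Tlr3, the endosomal receptor, had log2 values of 10.73, 10.46, 10.55 and 10.44 in nulliparous WT tumours and 10.64, 10.70, 10.39 and 10.04 in parous WT tumours. KO tumours stood at 10.59 (nulliparous, metastasis), 10.32, 10.21 and 10.54 (nulliparous, none), 9.91 and 10.56 (parous, metastasis) and 10.43, 10.94 and 10.59 (parous, none). All groups overlapped their neighbours in the order of means, and the highest tumour was a parous KO tumour. The WT parity difference was -0.10 (SE 0.17).

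Mavs, the adaptor shared by Ifih1 and its relative Ddx58 (RIG-I), had log2 values of 10.84, 10.60, 11.17 and 11.16 in nulliparous WT tumours and 10.78, 10.89, 10.89 and 10.84 in parous WT tumours. In KO tumours they were 10.65 (nulliparous, metastasis), 10.78, 10.80 and 11.07 (nulliparous, none), 11.12 and 10.55 (parous, metastasis) and 11.01, 10.03 and 10.86 (parous, none). No group stood apart, and the lowest value belonged to the parous KO tumour that was highest for Tlr3. The WT parity difference was -0.09 (SE 0.20).

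Among the effectors, Eif2ak2 (PKR) is a kinase that double-stranded RNA activates and that then blocks translation by phosphorylating eIF2 alpha. Its log2 values were 10.38, 10.25, 10.27 and 10.40 in nulliparous WT tumours and 9.58, 9.53, 9.17 and 9.29 in parous WT tumours. Values in KO tumours were 9.92 (nulliparous, metastasis), 9.79, 9.22 and 9.42 (nulliparous, none), 8.96 and 9.76 (parous, metastasis) and 9.26, 9.81 and 9.30 (parous, none). The nulliparous WT tumours were tightly grouped, with an SD of 0.075 on the log2 scale (n = 4), and lay above all 13 others. The WT parity difference of -0.93 (SE 0.18) was the smallest of the 7 genes.

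Mx2 belongs to a family of dynamin-like GTPases, members of which can hinder viral replication. Its log2 values were 8.91, 9.19, 9.29 and 9.37 in nulliparous WT tumours and 7.33, 7.67, 6.71 and 6.48 in parous WT tumours. KO tumours gave 8.49 (nulliparous, metastasis), 7.79, 6.56 and 7.03 (nulliparous, none), 7.06 and 7.37 (parous, metastasis) and 7.64, 7.13 and 6.33 (parous, none). The gap under the nulliparous WT group was the widest of the 9 genes here, 1.12 between its lowest tumour and the highest of the 12 tumours other than the lone KO one. The WT parity difference was -2.14 (SE 0.32), between means of 9.19 ± 0.20 and 7.05 ± 0.55 (SD, n = 4 each).

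Bst2 (tetherin) holds budding virus particles at the cell surface, and in mice it is also used as a surface marker of plasmacytoid dendritic cells. Its log2 values were 11.12, 10.35, 10.48 and 10.62 in nulliparous WT tumours and 9.36, 9.56, 8.77 and 8.64 in parous WT tumours. The values of KO tumours were 10.07 (nulliparous, metastasis), 9.37, 8.69 and 9.24 (nulliparous, none), 8.88 and 9.52 (parous, metastasis) and 8.95, 9.42 and 8.90 (parous, none). The nulliparous WT tumours lay above all others and the lone KO tumour came next. The WT parity difference was -1.56 (SE 0.25).

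Over the whole array, limma with Benjamini-Hochberg adjustment called 370 genes lower and 108 higher in parous than in nulliparous WT tumours. Of the 9 members, 7 passed and all 7 were lower, against 1.86% of all genes called lower and 2.4% called in either direction. The same 7 had groups that did not overlap, against 7.63% of all genes lower and 4.98% higher without overlap. The set was chosen on this contrast, so nothing is read from either count. The median difference was -1.52 over the 9 members and -0.01 over all genes. The count of members passing dropped to 2 without parous WT replicate 3, parous WT replicate 4, nulliparous WT replicate 1 or nulliparous WT replicate 4. The difference kept its sign for each of the 7 in all 26 other settings tried. Another quantile normalization of the tested genes called 276 genes lower and 152 higher, and subtracting each chromosome's level called 175 lower and 222 higher, with 6 and 7 members passing.

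**Figure D2:**
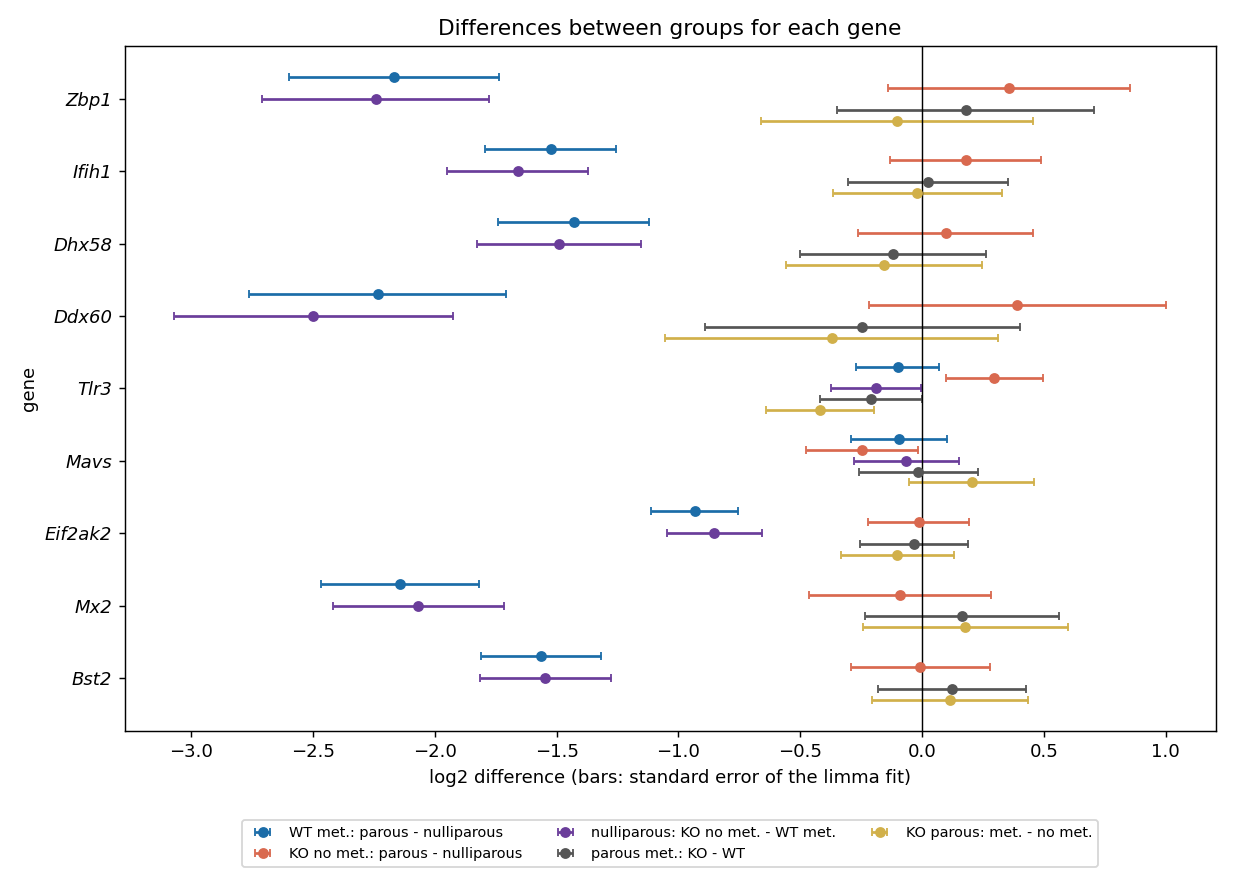
Log2 differences between groups (horizontal axis) for each gene (vertical axis) with standard errors from the limma fit, in 5 comparisons marked by colour. For 7 genes the parity difference in WT tumours and the nulliparous KO to WT difference lie between -0.85 and -2.50, while the other 3 comparisons lie between -0.42 and 0.39.

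In KO mice without metastasis, parity was compared in 3 parous and 3 nulliparous tumours, none of them WT. No member passed the test (limma, Benjamini-Hochberg adjusted p = 1 for each of the 9), and 0.0% of all genes did. At an unadjusted p under 0.05 no member passed, against 3.29% of all genes. No member had groups that did not overlap in this comparison, where 2.9% of genes were lower and 3.14% higher without overlap. The differences ran from -0.25 (Mavs, SE 0.23) to 0.39 (Ddx60, SE 0.61), with a median of 0.10 over the members against 0.01 over all genes. The median turned to -0.14 without parous KO replicate 2 and to -0.14 without nulliparous KO replicate 2, both from mice without metastasis, and to -0.10 with the pan-leukocyte level as a covariate.

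The 95% intervals show what these 6 tumours leave possible. They ran from -0.72 to 1.43 for Zbp1, from -0.49 to 0.85 for Ifih1 and from -0.68 to 0.87 for Dhx58. The interval of Ddx60 was wide, from -0.93 to 1.71, while that of Eif2ak2 was -0.46 to 0.43. Mx2 ran from -0.90 to 0.72 and Bst2 from -0.63 to 0.61. A p that misses the threshold does not show that parous and nulliparous KO tumours are alike.

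The difference between the parity contrasts, KO without minus WT with metastasis, holds the WT contrast and is described only. It was 2.52 (SE 0.66) for Zbp1, 1.70 (SE 0.41) for Ifih1, 1.53 (SE 0.48) for Dhx58 and 2.62 (SE 0.81) for Ddx60. It was 0.92 (SE 0.27) for Eif2ak2, 2.05 (SE 0.50) for Mx2 and 1.56 (SE 0.38) for Bst2. Tlr3 stood at 0.40 (SE 0.26) and Mavs at -0.15 (SE 0.30), each within 2 standard errors of 0. No member passed over all genes in limma after Benjamini-Hochberg adjustment, as did 0.0% of genes. At an unadjusted p under 0.05 the 7 genes passed, against 9.64% of all genes, and nothing is read from that count.

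Among nulliparous mice, KO tumours without metastasis were set against WT tumours with metastasis, which changes genotype and metastasis status together and uses the nulliparous WT arrays again. The differences were -2.24 (SE 0.47) for Zbp1, -1.66 (SE 0.29) for Ifih1, -1.49 (SE 0.34) for Dhx58 and -2.50 (SE 0.57) for Ddx60. Among the effectors they were -0.85 (SE 0.19) for Eif2ak2, -2.07 (SE 0.35) for Mx2 and -1.55 (SE 0.27) for Bst2. Tlr3 (-0.19, SE 0.19) and Mavs (-0.06, SE 0.21) again stood near 0. Groups did not overlap for the 7 genes, all lower in KO, against 6.8% of all genes lower and 6.05% higher without overlap.

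In that comparison Ifih1, Mx2 and Bst2 were among the genes that limma called after Benjamini-Hochberg adjustment, 3 of 9 members against 0.155% of all genes called lower. Since the nulliparous WT arrays are those on which the set was chosen, nothing is read from this count or from the lack of overlap. The count rested on single tumours. It was 0 without parous KO replicate 1 (no metastasis), nulliparous KO replicate 2 or 3 (no metastasis), parous WT replicate 1 or 3, or nulliparous WT replicate 1, 3 or 4. It was 1 without parous KO replicate 3 and 5 without parous KO replicate 2, both without metastasis. With only the groups of the comparison in the fit it was 0.

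Parous tumours showed no such split between genotypes. In parous mice with metastasis, KO minus WT differences ran from -0.24 (Ddx60, SE 0.65) to 0.18 (Zbp1, SE 0.53), with a median of -0.02 over the members and -0.03 over all genes. Leaving out 1 of the 2 KO samples moved this median to 0.37 (without replicate 1) or -0.43 (without replicate 2). The 95% intervals ran from -1.64 to 1.15 for Ddx60 and from -0.96 to 1.32 for Zbp1. A missed threshold does not show that parous KO and WT tumours are alike. No member passed and none was free of overlap between the groups, where 0.0% of genes passed and 11.7% were lower and 6.27% higher without overlap. At an unadjusted p under 0.05 no member passed, against 5.73% of all genes.

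Against parous WT tumours, parous KO tumours without metastasis differed by -0.22 (Mavs, SE 0.21) to 0.28 (Zbp1, SE 0.47). The median was 0.04 over the members and 0.01 over all genes. No member passed in limma with Benjamini-Hochberg adjustment, as did 0.0% of genes, and at an unadjusted p under 0.05 there were also 0 members against 5.76% of genes. No member was free of overlap, against 1.93% of genes lower and 3.91% higher.

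Metastasis status was compared within parous KO mice, 2 samples with and 3 without. Tlr3 differed most, at -0.42 (SE 0.22, 95% interval -0.90 to 0.06, limma with Benjamini-Hochberg adjusted p = 0.967). For the other 8 genes the differences ran from -0.37 (Ddx60, SE 0.68) to 0.20 (Mavs, SE 0.26), with adjusted p from 0.968 to 0.999 in the same fit. The interval of Zbp1 ran from -1.31 to 1.10 and that of Mx2 from -0.73 to 1.08, on the log2 scale. No member passed in limma, against 0.0% of genes, and at an unadjusted p under 0.05 no member passed, against 4.04%. The median of -0.10 (all genes -0.03) became 0.30 without replicate 1 and -0.50 without replicate 2 of the samples with metastasis.

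Single tumours followed the groups closely. All 12 tumours other than the nulliparous WT and the lone KO tumour lay below the lowest nulliparous WT value in each of the 7 genes. For Tlr3 this held in 6 of the 12 and for Mavs in 2. The lone nulliparous KO tumour with metastasis lay below the nulliparous WT range in 5 genes (Dhx58, Ddx60, Eif2ak2, Mx2 and Bst2). It lay within that range for Zbp1, Ifih1, Tlr3 and Mavs. For Ddx60 it stood at 10.0636 and the lowest nulliparous WT tumour at 10.064, so the 2 were level. As it is 1 tumour, no test was made on it. The order of the other groups changed from gene to gene, and neighbouring groups in that order overlapped.

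Taking the mean log2 value of the 7 genes, a group picked after their values were seen, nulliparous WT tumours had 10.57 ± 0.20 (SD, n = 4) and parous WT tumours 8.86 ± 0.48 (SD, n = 4). The lone KO tumour had 10.14. The KO groups without metastasis had 8.81 ± 0.51 (nulliparous, SD, n = 3) and 8.94 ± 0.49 (parous, SD, n = 3), and parous KO with metastasis had 8.87 ± 0.57 (SD, n = 2). These 4 low groups differed by less than the spread within them.

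Within groups the same tumours tended to be high or low in most of the 7 genes. Among nulliparous KO tumours without metastasis, replicate 1 was highest in 6 and replicate 2 lowest in all 7. Among parous KO tumours without metastasis, replicate 2 was highest in 6 and replicate 3 lowest in 5. Parous WT replicate 2 was highest in 5 and replicate 1 in the other 2, while replicates 3 and 4 shared the lowest place, in 4 and 3 genes. Nulliparous WT replicate 1 was highest in 5 and replicate 2 lowest in 5.

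**Figure D3:**
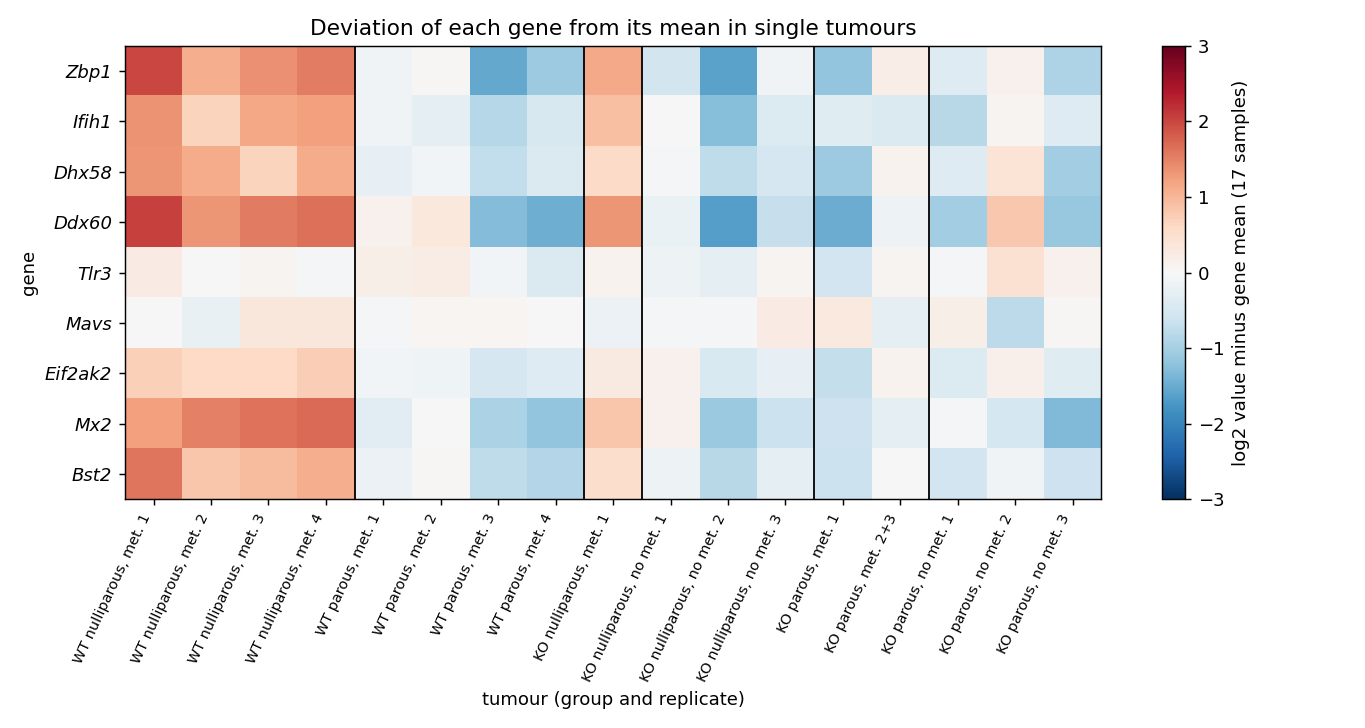
Each cell shows the log2 value of a gene (rows) in a tumour (columns) minus the gene's mean over the 17 samples, from blue (lower) to red (higher), with lines between the 6 groups. The label 2+3 marks the mean of the near-identical arrays. The 4 nulliparous WT columns and the lone nulliparous KO column are red in 7 rows, and the rows of Tlr3 and Mavs are pale.

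The share of the variation that lay between groups was 71.5% to 83.8% of the sum of squares for the 7 genes, 28.2% for Tlr3 and 17.4% for Mavs. With 6 groups among 17 samples, part of the variation lies between groups even where they do not differ. The shares of Tlr3 and Mavs are therefore not read as group differences. Over the 17 samples, Pearson r among the 7 genes ran from 0.87 to 0.97 (median 0.93, 21 pairs). After each group's mean was removed (16 samples, since the lone KO tumour has no group to deviate from) it still ran from 0.39 to 0.92, with a median of 0.74. Without the nulliparous WT tumours (13 samples) the median was 0.84. These are descriptions over shared arrays and shared tumour composition.

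Tlr3 and the 7 genes had a median r of 0.48 over the 17 samples, which became 0.74 once group means were removed. So within groups Tlr3 was higher in the tumours where the others were higher, although its group means hardly moved. Mavs had a median r of -0.02 with the 7, and -0.35 after group means were removed, with every one of the 7 values below 0. Tlr3 and Mavs had an r of -0.48 with each other.

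The genes most like the mean of the 9 members over the 17 samples, of 18610 genes compared, were Tap1 (r = 0.99), Stat2, Parp12 and Slfn2 (0.98 each), then Rnf213, Usp18, H2-Q4, Parp14, Oas2 and Irf7 (0.97 each). Tap1 is a peptide transporter of antigen presentation and H2-Q4 is a class I histocompatibility gene. Stat2 is a subunit of the transcription factor that binds the ISRE, and Irf7 is an interferon regulatory factor. These genes were picked for their likeness to the members on the same arrays, so their WT parity differences are given with no test. That of Stat2 was -1.65 (SE 0.23) and that of Irf7 was -2.15 (SE 0.53). In KO tumours without metastasis the parity difference of Stat2 was 0.19 (SE 0.26).

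The nearest genes of single members overlapped in part with those of the mean. For Ddx60 they were Ifit1, Oasl2 and Ddx58 (r = 0.98 each), and for Bst2 they were Znfx1 (0.98), Stat2 and Tap1 (0.97 each). Ifih1 was nearest to Stat2, Trafd1 and Tapbp (0.97 each), Zbp1 to Oasl2 (0.97), H2-Q4 and Parp14 (0.96 each), and Dhx58 to Epsti1, Rnf213 and Oasl1 (0.96 each). Eif2ak2 was nearest to Epha2 (0.98), a receptor tyrosine kinase, then Rnf213 (0.97) and Tap1 (0.96). Mx2 was nearest to Ogfr (0.97), Rnf114 (0.96) and Adar (0.95).

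The other pair had neighbours of a different kind. Tlr3 was nearest to Otud4 (0.94), a deubiquitinase on the same chromosome, Cldn4 (0.91), a tight junction protein, and Wtap (0.88). Mavs was nearest to Poll (0.93), a DNA polymerase, Kif16b (0.92), which lies on its chromosome, and Phf2 (0.89). Otud4 differed by -0.12 (SE 0.17) and Poll by -0.04 (SE 0.15) between parous and nulliparous WT tumours.

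Other genes of the pathway were counted from lists written with earlier results known. Their counts in the WT parity contrast use the arrays on which the members were chosen, so nothing is read from them. Of 14 further RNA and DNA sensors measured, none passed in the WT parity contrast (limma, Benjamini-Hochberg over all genes), where 2.4% of all genes did, so a count of 0 says little of a list this short. At an unadjusted p under 0.05, 7 of the 14 passed, against 16.2% of all genes. Of the 14, 13 lay below 0, against 51.7% of all genes, with a median of -0.25 against -0.01. Ddx58, the RIG-I receptor, was the nearest list gene to Ddx60, and differed by -1.41 (SE 0.40). The brightest of the list, the helicases Ddx3x (-0.12, SE 0.06) and Dhx9 (-0.13, SE 0.09), did not pass. Of 20 adaptors, kinases and death partners, 1 passed, Traf6, a ubiquitin ligase of the signalling route, and it was lower. That share is near the 1.86% of all genes called lower and is no result about the list. The list's median was -0.17, with Tank at 0.19 (SE 0.11) and Tax1bp1 at -0.12 (SE 0.15).

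Direct partners of the members were looked up for their link and fall outside the naming rule. Ripk3, the kinase that Zbp1 engages, differed by -0.21 (SE 0.14), and Mlkl, the executor of necroptosis, by -0.90 (SE 0.33, adjusted p = 0.184 in limma) between parous and nulliparous WT tumours. Ticam1, the adaptor of Tlr3, stood at 0.04 (SE 0.14). Mx1, the paralog of Mx2, differed by -1.12 (SE 0.30, adjusted p = 0.069 in limma).

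Of 26 antiviral effectors measured, limma called 10 lower and 0 higher in parous WT tumours, against 1.86% of all genes called lower. Of the 26, 23 lay below 0, with a median of -0.96 against -0.01 over all genes. Nothing is read from these counts, as for the other lists. The 10 called were Adar, Zc3hav1, Rsad2, Parp12, Parp14, Cmpk2, Xaf1, Ifi35, Nmi and Samd9l. Adar, which edits double-stranded RNA so that it is less readily sensed, fell by 0.75 on the log2 scale (SE 0.11). The 2 brightest genes of the list did not pass, Ifitm3 at -0.12 (SE 0.18) and Ifitm2 at 0.19 (SE 0.07). Of the 5 measured genes on the Isg15 conjugation list, Uba7, its activating enzyme, was lower by 1.11 (value -1.11, SE 0.20), and Usp18, which removes Isg15, fell by 2.07 (SE 0.42). The median of the 5 was -1.23, and that list also holds Ifi27, which is not a conjugation enzyme and stood at -0.08 (SE 0.24).

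Of 10 nucleic acid clearance genes, Adar and Pnpt1, an RNA-degrading mitochondrial enzyme, were called lower, against 1.86% of all genes. Adar is already counted among the effectors. The list's median was -0.32 against -0.01 over all genes. Samhd1, a nucleotide hydrolase that also counts among interferon-induced genes, stood at -0.83 (SE 0.23, adjusted p = 0.0778 in limma), and Skiv2l at -0.10 (SE 0.06). None of 9 genes of the translation stress response downstream of Eif2ak2 passed (0 also at an unadjusted p under 0.05 in limma), with a median of -0.05, and Asns (-0.12, SE 0.24) and Trib3 (0.31, SE 0.15) are the brightest of them. None of 8 interferon ligands passed either, with a median of 0.03. At an unadjusted p under 0.05 in limma 1 did, against 16.2% of all genes. Ifnb1 stood at -0.07 (SE 0.08), while Ifna5 (0.07, SE 0.08) and Ifnl2 (0.08, SE 0.09) are the brightest of that list. Ifnb1 averaged 5.64 in nulliparous and 5.57 in parous WT tumours, below the array medians of 7.60 to 7.67. RMA compresses dim genes, so these small differences do not show that ligand levels are alike. In KO tumours without metastasis none of these 7 lists had a gene that passed for parity, where no gene on the array passed either; at an unadjusted p under 0.05 in limma, 2 of their 89 genes did, against 3.29% of all genes. In nulliparous KO against WT tumours, Traf6, Adar, Xaf1, Uba7 and Usp18 of those 89 passed, all lower in KO, against 0.155% of all genes called lower. That contrast uses the nulliparous WT arrays again, and the lists were written with earlier results known, so nothing is read from these calls.

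The mean level of pan-leukocyte markers tended to be higher where the members were higher, although none of these markers passed in the WT parity contrast. At an unadjusted p under 0.05 in limma 5 of 8 did, against 16.2% of all genes. In that contrast 7 of the 8 lay below 0. The exception was Lcp1, the brightest of them, at 12.47 in nulliparous and 12.53 in parous WT tumours, and 12.01 in the lone KO tumour. The mean log2 value of the 8 pan-leukocyte markers ran from 9.08 to 9.75 in nulliparous WT tumours and from 8.60 to 9.24 in parous WT tumours. It was 9.43 in the lone KO tumour, 8.39 to 8.96 in nulliparous KO tumours without metastasis, 8.73 to 8.93 in parous KO tumours with metastasis and 8.69 to 9.80 in those without. Its Pearson r with the mean of the 9 members was 0.82 over 17 samples and 0.77 over the 13 without nulliparous WT tumours. With this level as a covariate in limma, 0 of the 9 members passed in the WT parity contrast and 0 in the nulliparous KO to WT contrast, and 3 genes on the whole array passed in the first of them. The median difference over the members was then -1.02 in the first and -1.05 in the second. What part these cells have in the members' differences was not tested.

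The parous KO tumour without metastasis that is replicate 2 had the highest pan-leukocyte level of all samples, 9.80. Its mean over the 9 members was 9.70, below the 10.40 to 10.81 of nulliparous WT tumours, whose pan-leukocyte levels were lower. As it is 1 tumour, nothing is read from it on the part of these cells, which was not tested. Macrophage markers (10 of 10 measured) ran from 9.49 to 10.02 in nulliparous and 9.02 to 10.05 in parous WT tumours. NK cell markers (8 of 8) ran from 6.12 to 6.82 and from 5.91 to 6.02, below the array medians of 7.60 to 7.67. Of them, Ncr1 and Nkg7 were called lower in parous WT tumours (limma, adjusted over all genes), against 1.86% of all genes. T cell markers (9 of 10) ran from 6.44 to 7.39 and from 6.37 to 6.47. With the members' mean, neutrophil markers (8 of 8) had an r of -0.03 over the 17 samples and 0.43 over the 13 without nulliparous WT tumours. Over the same 17 and 13 samples, r was 0.81 and 0.53 for conventional dendritic cell markers (8 of 8). For NK cell markers r was 0.79 and 0.56, for macrophage markers 0.74 and 0.73, and for T cell markers 0.70 and 0.65. Plasmacytoid dendritic cell markers (6 of 8), which bear on Bst2, ran from 7.05 to 7.32 and from 6.99 to 7.09, with Siglech at 7.02 ± 0.19 and 6.88 ± 0.09 (SD, n = 4 each). The lone KO tumour had B and plasma cell markers (7 of 8) at 7.61, while nulliparous WT tumours ran up to 6.88.

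Markers of other tissue also lay lower on average in parous WT tumours. Of the fibroblast and matrix markers, 8 of 8 lay below 0 in this contrast, against 51.7% of all genes, with a median of -0.69. Skeletal muscle markers (8 of 8 below 0) had a median of -0.77 and adipocyte markers (7 of 7) one of -0.48. Endothelial markers (8 of 8 below 0) had a median of -0.22. The mean of the muscle markers ran from 7.13 to 11.18 in nulliparous and from 7.12 to 8.54 in parous WT tumours, so the groups overlapped. Genes of a list were measured in the same tumours, so their counts are not independent observations. Of these lists, only Lipe, a lipase of adipocytes, passed in limma. The r of each list's mean with the members' mean was taken over the 17 samples. It was 0.53 for fibroblast and matrix, 0.18 for skeletal muscle, 0.74 for adipocyte and 0.45 for endothelial markers. Their part in the members' differences was not tested.

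**Figure D4:**
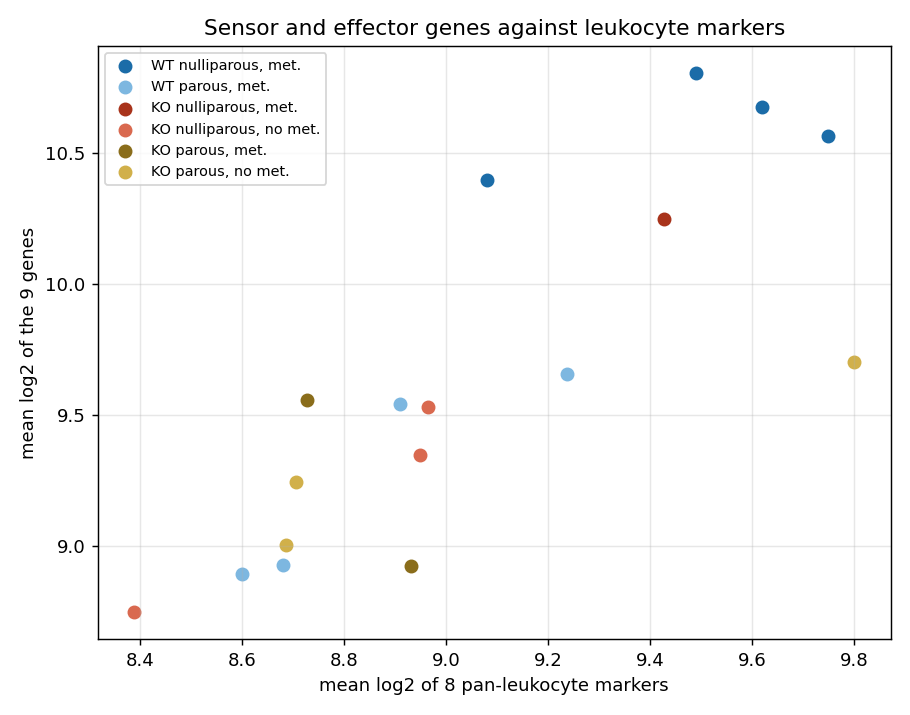
Mean log2 value of the 9 members (vertical axis) against the mean of 8 pan-leukocyte markers (horizontal axis) in 17 samples, coloured by group. Nulliparous WT tumours lie at 10.40 to 10.81 on the vertical axis and 9.08 to 9.75 on the horizontal axis. A parous KO tumour without metastasis lies at 9.70 and 9.80 on these axes. Pearson r over the 17 samples is 0.82.

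The members lie on 5 chromosomes, Zbp1, Ifih1 and Mavs on 2, Ddx60, Tlr3 and Bst2 on 8, Dhx58 on 11, Mx2 on 16 and Eif2ak2 on 17. Between parous and nulliparous WT tumours, the level of the other genes differed by -0.15 on chromosome 2 and -0.16 on chromosome 8, and by 0.02 or less on the other 3. With the level of up to 100 neighbouring genes subtracted, the WT parity difference was -2.01 for Zbp1, -1.37 for Ifih1, -2.12 for Ddx60 and -1.38 for Bst2. It was -0.01 for Tlr3 and -0.01 for Mavs, so members of 1 chromosome differed widely from each other.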

How the data were processed

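The authors deposited log2 values for 35556 probe sets and 18 single-colour arrays, made with RMA in oligo per the submitters' processing notes; versions are not given in the sources used here. A single symbol was given to 21789 probe sets by the platform annotation; probe sets with several genes or none were left out. The members and lists were chosen with earlier results of these data known. Near-identical arrays were averaged, leaving 17 samples. Labels call the arrays biological replicates. One limma 3.58.1 fit (R 4.3.3; lmFit, eBayes, 2-sided) of 6 group means gave 7 comparisons, with Benjamini-Hochberg adjustment over 19938 genes and a threshold of 0.05; it was tested on simulated data. Correlations and motif searches used Python 3.11.15. By rule, named genes are the members, the 2 brightest genes of each pathway list and the genes of a list that were called. The 10 genes most correlated with the members' mean and the 3 nearest to each member are named too. Others, such as the direct partners, Ifnb1, Lcp1, Siglech and Snai2, were chosen by hand. Alternatives changed the averaging, normalization, dim filter (40%), probe sets, prior, samples, covariates, chromosome level and replicates.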

Additional observations from a re-analysis of the deposited data

How the results depend on the processing

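The parity difference in WT tumours kept its sign for Zbp1, Ifih1, Dhx58, Ddx60, Eif2ak2, Mx2 and Bst2 in all 26 settings, while that of Tlr3 changed sign in 3 and that of Mavs in 1. The counts were less stable. In this contrast 478 genes passed; the count was 3 with the pan-leukocyte covariate, 212 with the replicate block, 878 with only the groups of the comparison, and 57 to 770 with 1 sample left out. The 7 members passing became 0 with the covariate, 4 with the block and 2 to 7 with 1 sample left out, and their median was -1.02 with the covariate. In nulliparous KO against WT, 49 genes passed; the count was 128 with all 18 arrays kept apart, 32 with chromosome levels subtracted, 1 with only the groups of the comparison, 0 with the covariate, 0 with the replicate block and 0 to 179 with 1 sample left out. The 3 members passing there became 0 with the covariate, 0 with the block, 0 with only those groups and 0 to 5 with 1 sample left out, and the median was -1.05 with the covariate. The median difference of the parity contrasts was 0.92 with the covariate. With 1 sample left out, the comparisons in which no gene passed gave 0 to 2 genes for parity in KO, 0 to 17 for KO against WT in parous mice with metastasis, 0 to 5 for metastasis status, 0 to 2 for parous KO without metastasis against WT and 0 to 8 for the difference of the parity contrasts. Members' medians then ran from -0.43 to 0.37 in parous KO against WT with metastasis and from -0.50 to 0.30 for metastasis status. Where a comparison was left with 1 sample in a group, that sample was assumed to vary like the other groups. The cause of these shifts was not tested, and some settings also held fewer samples.

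Replicate numbers did not pair the samples: deviations from group means correlated from -0.36 to 0.42 (median 0.01) over 27 same-number pairs, and from -0.42 to 0.51 (median 0.01) over 74 others. Calls lost under the block are not read as a weaker effect. Signal compression limits what can be said of Mx2, the dimmest member, and 2 or 3 samples a group limit every comparison in KO mice.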
